A study of Mus musculus with 72 samples.

Results

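The plasminogen activator system was followed through 5 genes, Plau, Plaur, Plat, Serpine2 and Serpinb2, of the 50600 genes in the count table. The genes were chosen by their symbols, after their response to gastrin-releasing peptide (GRP) in these libraries was known, so their change with GRP against mock, and the change of that response when an antagonist was added, are described here without a test. The question addressed was what activation of the GRP receptor (GRPR) does to gene expression, and RNA-seq covered 6 melanoma cell lines from mice in 72 libraries. For each line, 3 libraries came from mock cells (0.1% DMSO), 3 from cells with GRP (10 nM), 3 from cells with the GRPR antagonist RC-3095 (RC, 1 µM) and 3 from cells with GRP plus RC (GRP+RC). Treatment lasted 4 h, in 0.5% serum, after 18 h of starvation at that serum level.

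All lines carried NRAS(Q61K) under the Tyr promoter, which is active in melanocytes. Lines 1057 and 1064 were female and GRPR-positive by label, with the genotype Tyr::NRASQ61K/°, Cdkn2a-/-, Tyr::CreA/°, Cdh1dF/dF. Line 1181, male by label, was labelled Tyr::NRASQ61K/°, Cdkn2a-/-, °/°, Cdh1dF/dF, with CMV::tGFP in 1181-Ctrl (GRPR-negative) and CMV::Grpr/tGFP in 1181-Grpr (GRPR-positive). Line 1014 was female, Tyr::NRASQ61K/°, with CMV::tGFP in 1014-Ctrl (GRPR-negative) and CMV::Grpr/tGFP in 1014-Grpr (GRPR-positive). Cdh1, the E-cadherin gene, was at 0.119 CPM or less in 1057 and 1064 but at 14.5 to 26.9 CPM in 1181-Ctrl and 9.74 to 25.3 in the 1181-Grpr libraries that matched their labels, so the Cdh1 genotype in the label of 1181, which names no Cre, did not go with loss of its RNA. In 1181-Grpr and 1014-Grpr the receptor was therefore read from a transgene under the viral CMV promoter, not from its own locus. The methods speak of biological triplicates for cell culture work in general, but the labels do not say whether these replicates were separate cultures, so p-values measure the spread between these libraries, which may be technical.

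Urokinase, encoded by Plau, and tissue plasminogen activator, encoded by Plat, are serine proteases that cut the inactive zymogen plasminogen into plasmin, a protease that degrades fibrin and other matrix proteins and activates further proteases. Plaur encodes the urokinase receptor, a protein held in the membrane by a lipid anchor that keeps urokinase at the cell surface and also signals together with integrins. Serpine2 (protease nexin 1) and Serpinb2 (plasminogen activator inhibitor type 2) belong to the serpin family and block plasminogen activators, and Serpine2 blocks thrombin as well. In melanoma, the system is known for its part in invasion through matrix.

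In GRCm38 with GENCODE release 21, Plau lies on chr14:20836660-20843385 (plus strand), Plaur on chr7:24462484-24475968 (plus), Plat on chr8:22757727-22782844 (plus), Serpine2 on chr1:79794197-79861180 (minus) and Serpinb2 on chr1:107511423-107535478 (plus). Another gene on the same strand, Serpinb10, overlaps 12.4% of the exon bases of Serpinb2, and Serpinb10 never passed 4 counts in a library. The exons of the other 4 genes overlap no other gene. RefSeq promoter sequences (GRCm38.p6) were at hand for 3 of the 5 genes, Plaur, Serpine2 and Serpinb2. The promoters of Plaur and Serpinb2 are printed because these genes had the highest log2 fold changes with GRP in 3 lines, and each holds a match to the AP-1 motif TGANTCA, shown in capitals, within the 150 bases before the start site.
Plaur, chr7:24462333-24462482, plus strand: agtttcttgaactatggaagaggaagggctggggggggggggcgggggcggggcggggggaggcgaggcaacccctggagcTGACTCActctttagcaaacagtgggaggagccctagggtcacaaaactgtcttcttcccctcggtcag
Serpinb2, chr1:107511273-107511422, plus strand: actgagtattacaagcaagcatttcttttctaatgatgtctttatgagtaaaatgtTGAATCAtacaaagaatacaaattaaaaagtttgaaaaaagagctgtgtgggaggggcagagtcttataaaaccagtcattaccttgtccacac
The match in Plaur lies 69 to 63 bases before the start and that in Serpinb2 94 to 88 bases before it, the same bases being 181 to 175 before a second annotated start. Searched on both strands over 250 bases before the start, the AP-1 motif occurs in 6.75% of 32851 mouse promoters, so a match is not rare, and it marks no binding in these cells. The CRE motif TGACGTCA (1.55% of promoters), the TEAD motif GGAATG (12.6%) and the CArG box (1.47%) were found in none of the 3 promoters, and Serpine2 held no AP-1 match.

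Totals ran from 19512882 to 46862053 counts per library, with a median of 28112904.5. Levels are given as CPM, counts scaled to library size and normalized by TMM over all 72 libraries, and a count of 3 in a library, equal to 0.0666 to 0.16 CPM, was taken as the floor of detection, which covers counting error only. In the libraries that matched their labels, the 7 melanocyte markers examined summed to 5426 to 37584 CPM, and no leukocyte, endothelial, keratinocyte or fibroblast list summed to more than 55.7 CPM. In these bulk libraries, fewer cells that express a gene and less RNA per cell cannot be told apart. Grpr was at 187 to 275 CPM in 1057, 472 to 1284 in 1064, 107 to 620 in 1014-Grpr and 8.49 to 79.9 in 11 of 12 libraries of 1181-Grpr, and at most 0.0915 in 1181-Ctrl and 0.0332 in 11 of 12 libraries of 1014-Ctrl. The remaining 2 libraries went against their labels. The library labelled 1014-Ctrl mock replicate 2 had Grpr at 48.1 CPM and the Y-linked gene Ddx3y at 64.2, and the library labelled 1181-Grpr GRP+RC replicate 2 had Grpr at 0 and Xist at 794. The first also had Cdkn2a at 18.5 and Dct at 5579 CPM, within the ranges of the other 1181-Grpr libraries (17 to 22.5 and 5216 to 5730). The second had Cdkn2a at 83.4 and Dct at 21714.5 CPM, within those of the other 1014-Ctrl libraries (71 to 85.9 and 20646 to 22466). In these genes each thus matched the line on the label of the other, and whether they were exchanged was not tested. Several results that rest on these libraries are given with and without them. GRP+RC against GRP in 1181-Grpr, the likeness over group means and some shares and counts over all genes are given only with them.

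**Figure D1:**
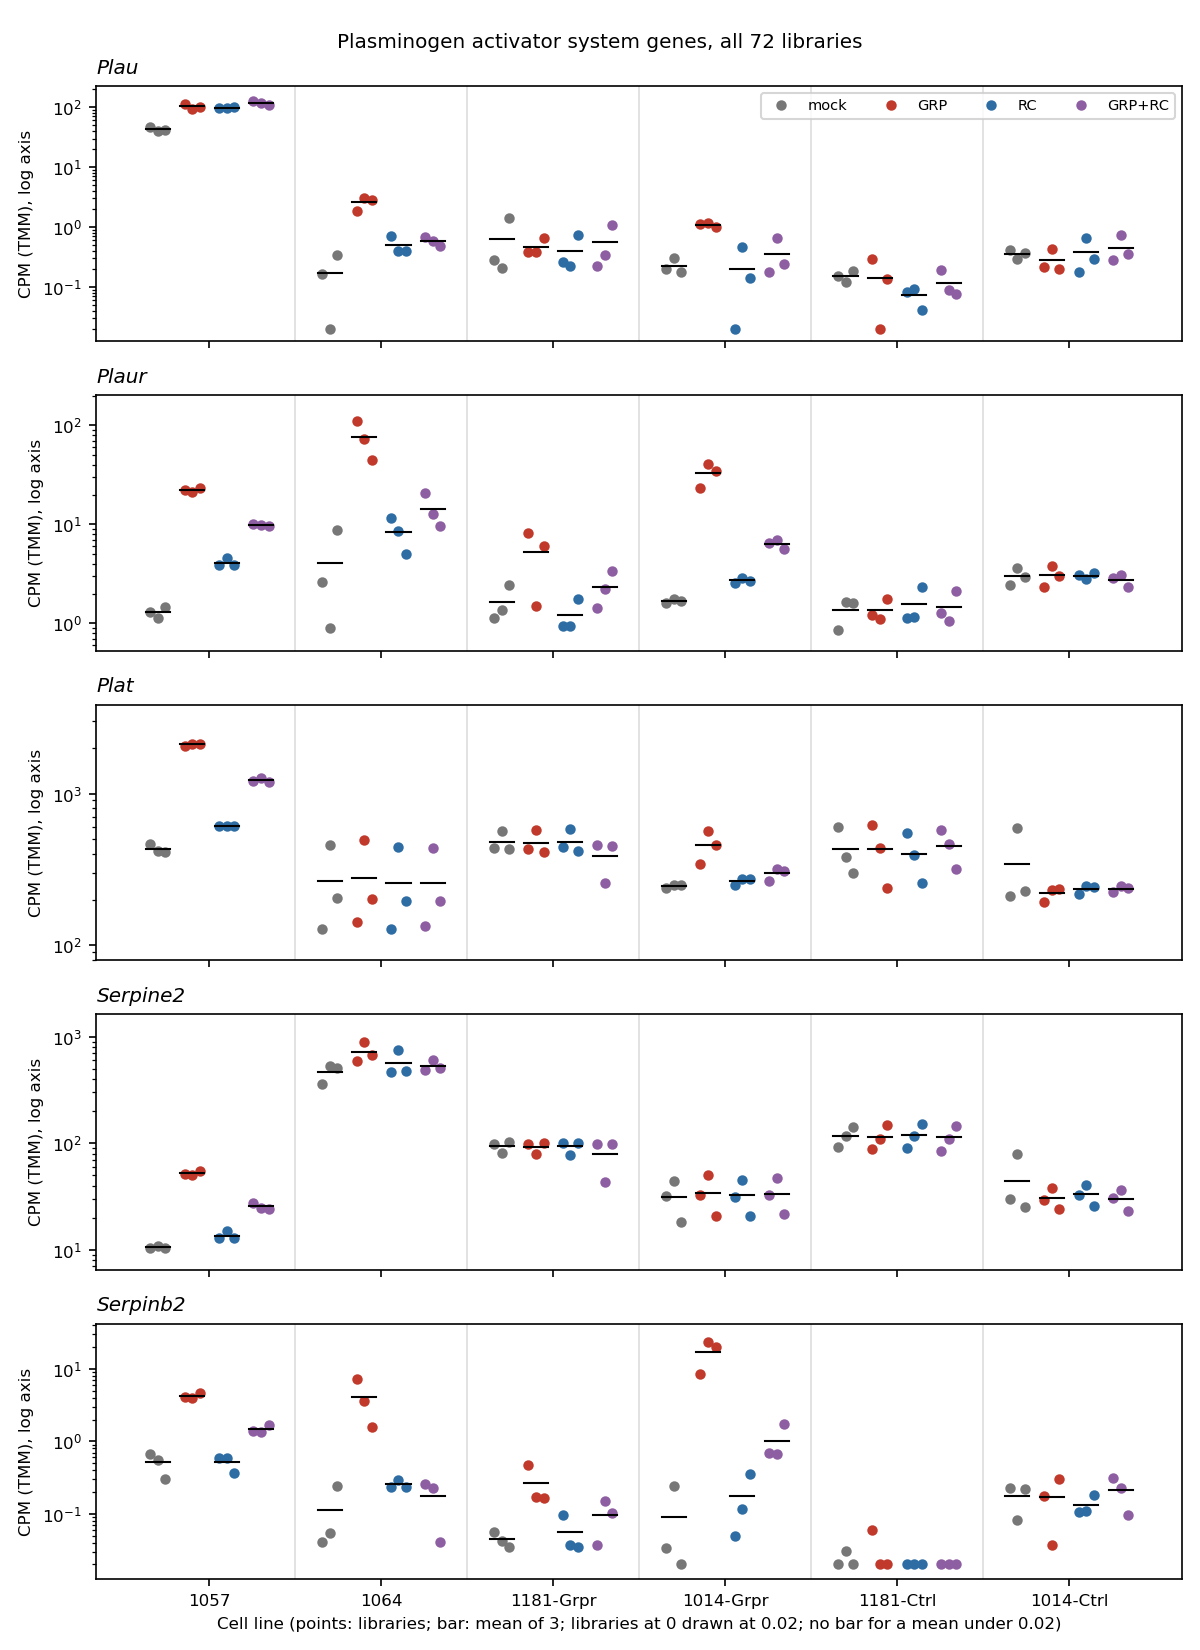
CPM (TMM, log axis) of Plau, Plaur, Plat, Serpine2 and Serpinb2 in each of the 72 libraries, by line and treatment, with points for libraries and bars for group means. Libraries at 0 are drawn at 0.02 and no bar is drawn for a mean under 0.02, and Plat sits above 100 CPM in every library whereas Plau is above 40 CPM in 1057 alone.

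The receptor gene Plaur was low in mock libraries of every line and was high with GRP in 3 of the 4 GRPR lines. In 1057, Plaur was at 1.29, 1.15 and 1.47 CPM in mock, 22.5, 21.4 and 23.5 with GRP, 3.88, 4.56 and 3.85 with RC and 10, 9.95 and 9.65 with GRP+RC. These 4 treatments did not overlap. In 1064, the mock libraries were at 2.64, 0.908 and 8.78 CPM and the GRP libraries at 111, 72.8 and 44.8, while RC gave 11.5, 8.56 and 4.99 and GRP+RC 20.8, 12.9 and 9.53. The GRP libraries of 1064 stood above all others, and its mock and RC libraries overlapped, as did RC and GRP+RC. In 1014-Grpr, mock gave 1.62, 1.75 and 1.68 CPM, GRP 23.4, 40.7 and 34.2, RC 2.55, 2.88 and 2.71 and GRP+RC 6.44, 6.88 and 5.68, again with no overlap between treatments. In 1181-Grpr, Plaur was at 1.13, 1.38 and 2.45 CPM in mock and 8.22, 1.51 and 6.03 with GRP, where replicate 2 lay within the mock range. RC gave 0.943, 0.939 and 1.77 CPM there and GRP+RC 1.45, 2.24 and 3.36, the middle value being the library against its label. Both control lines stayed between 0.849 and 3.8 CPM in every library.

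As a log2 fold change, the response of Plaur to GRP was 4.30 (SE 0.2) in 1014-Grpr, 4.19 (SE 0.72) in 1064 and 4.13 (SE 0.1) in 1057, and in 1181-Grpr it was 1.68 (SE 0.58). With GRP+RC against GRP the value was -2.42 in 1064, -2.39 in 1014-Grpr, -1.20 in 1057 and -1.15 in 1181-Grpr. So the level with GRP+RC stayed between those with RC and with GRP in 1057 and 1014-Grpr.

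Plau, the gene of the protease bound by this receptor, was well expressed in a single line. In 1057 it was at 46.2, 40.3 and 41.8 CPM in mock, 111, 94.4 and 102 with GRP, 98.1, 96 and 101 with RC and 125, 116 and 110 with GRP+RC. The mock libraries were lowest, the GRP and RC libraries overlapped, and so did the GRP and GRP+RC libraries. Elsewhere Plau was near the floor. In 1064, mock libraries held 0.165, 0 and 0.347 CPM (4, 0 and 10 counts) and GRP libraries 1.85, 3.1 and 2.87 (43, 60 and 72 counts), against 0.709, 0.404 and 0.396 with RC and 0.696, 0.596 and 0.48 with GRP+RC. In 1014-Grpr, mock gave 0.203, 0.301 and 0.176 CPM and GRP 1.12, 1.18 and 0.999, while RC gave 0, 0.461 and 0.143 and GRP+RC 0.181, 0.659 and 0.245. The GRP libraries of 1064 and 1014-Grpr thus lay above all others of the same line, at 3.1 CPM or less. In 1181-Grpr, where 3 of 4 treatments had their highest value above 0.7 CPM in replicate 3, Plau ranged from 0.209 to 1.44 CPM, and in the control lines from 0 to 0.725. The log2 fold change with GRP was 3.78 (SE 0.61) in 1064, 2.23 (SE 0.58) in 1014-Grpr, 1.29 (SE 0.06) in 1057 and -0.44 (SE 0.79) in 1181-Grpr, and that of GRP+RC against GRP was -2.14, -1.59, 0.17 and 0.25 in the same order. The 1064 and 1014-Grpr values depend on the prior count of the fit, since mock was at or near the floor.

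Plat, the other activator, was expressed in every line, and its GRP libraries stood apart in 1057 and 1014-Grpr alone. In 1057, Plat was at 463, 420 and 414 CPM in mock, 2070, 2118 and 2131 with GRP, 615, 611 and 611 with RC and 1204, 1273 and 1190 with GRP+RC, with no overlap between treatments. In 1014-Grpr, mock libraries gave 239, 249 and 251 CPM and GRP libraries 343, 567 and 458, with 251, 272 and 271 for RC and 264, 320 and 310 for GRP+RC. Here the GRP libraries stood above the rest. In 1064, each replicate number kept its own level in every treatment: mock gave 128, 458 and 206 CPM, GRP 142, 496 and 200, RC 128, 444 and 197 and GRP+RC 133, 437 and 197. The groups overlapped fully, and replicate 2 was the highest in all 4 treatments. In 1181-Ctrl, replicate 1 was likewise the highest (552 to 620 CPM) and replicate 3 the lowest (237 to 317) in all 4 treatments. The 11 libraries of 1181-Grpr that matched their labels ranged from 411 to 585 CPM, and the library against its label was at 256. In 1014-Ctrl the libraries ranged from 193 to 248 CPM apart from the mock library against its label, at 593. The log2 fold change with GRP was 2.31 (SE 0.04) in 1057, 0.91 (SE 0.14) in 1014-Grpr, 0.09 (SE 0.66) in 1064 and -0.02 (SE 0.23) in 1181-Grpr. GRP+RC against GRP gave -0.80 in 1057 and -0.63 in 1014-Grpr.

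**Figure D2:**
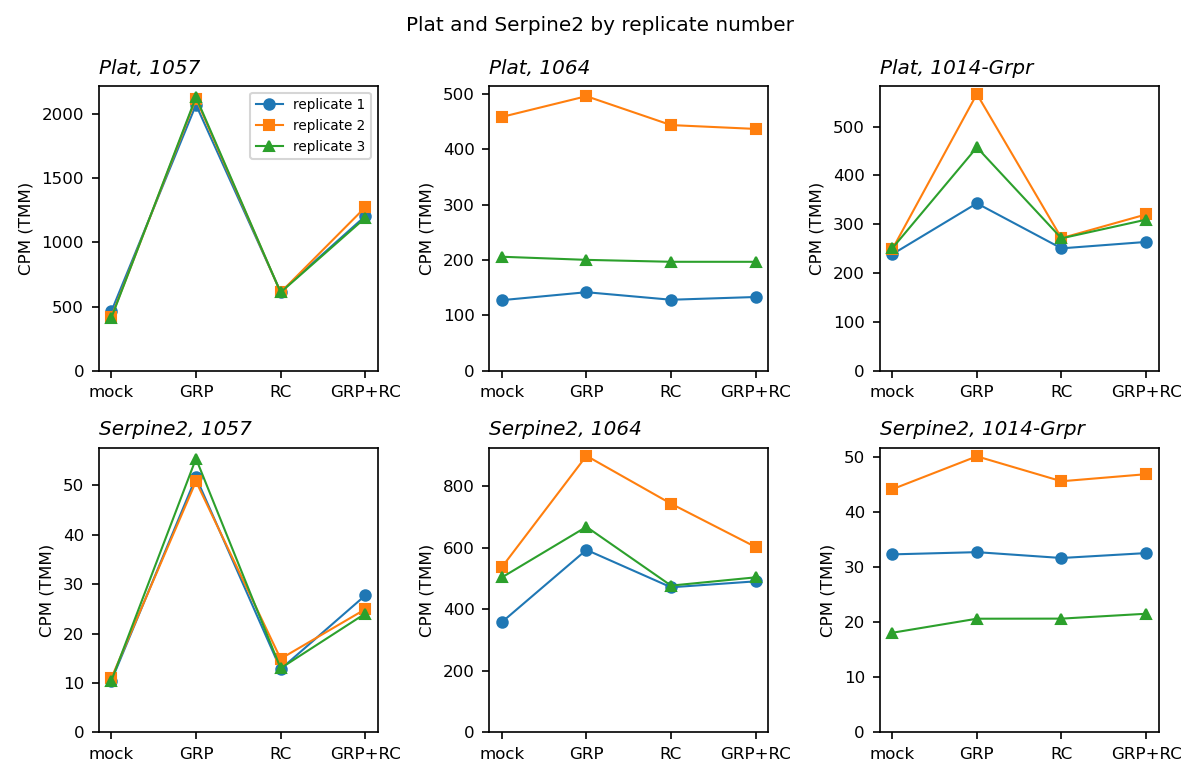
CPM (TMM) of Plat and Serpine2 in 1057, 1064 and 1014-Grpr by treatment, with the libraries of each replicate number joined by a line. Plat in 1064 keeps 3 separate levels, about 128 to 142, 437 to 496 and 197 to 206 CPM, whereas in 1057 the 3 lines run together from 414 to 463 CPM in mock to 2070 to 2131 with GRP.

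Serpine2, the protease nexin gene, differed more between lines than between treatments. In 1057, where it was lowest, it was at 10.5, 11 and 10.5 CPM in mock, 51.6, 50.8 and 55.4 with GRP, 12.8, 14.9 and 13 with RC and 27.7, 24.9 and 24.1 with GRP+RC, without overlap between treatments. In 1064, where it was highest, mock gave 358, 536 and 503 CPM, GRP 593, 898 and 668, RC 471, 743 and 477 and GRP+RC 491, 602 and 504. The GRP libraries of 1064 lay above its mock libraries, and the RC and GRP+RC libraries overlapped with each other and with mock. In 1014-Grpr the level followed the replicate number: replicate 1 was at 31.7 to 32.7 CPM, replicate 2 at 44.1 to 50.1 and replicate 3 at 18.1 to 21.5 over the 4 treatments. In 1181-Grpr it was at 77.1 to 103 CPM in libraries that matched their labels and 43 in the library against its label. It was at 84.3 to 150 in 1181-Ctrl, and in 1014-Ctrl at 23.3 to 41 apart from the mock library against its label, at 78.7. Its log2 fold change with GRP was 2.33 (SE 0.06) in 1057 and 0.63 (SE 0.23) in 1064, against 0.13 (SE 0.41) in 1014-Grpr and -0.02 (SE 0.26) in 1181-Grpr. With GRP+RC against GRP it was -1.06 in 1057 and -0.45 in 1064.

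Serpinb2, the second inhibitor gene, was at or near the floor without GRP in all lines but 1057. In 1057 it was at 0.676, 0.557 and 0.306 CPM in mock (22, 18 and 10 counts), 4.08, 3.99 and 4.72 with GRP, 0.581, 0.582 and 0.37 with RC and 1.37, 1.36 and 1.68 with GRP+RC. Mock and RC overlapped, and GRP+RC lay between them and GRP. In 1064, mock held 0.0413, 0.0534 and 0.243 CPM (1, 1 and 7 counts) and GRP 7.2, 3.56 and 1.59 (167, 69 and 40 counts), with 0.236, 0.294 and 0.238 for RC and 0.256, 0.224 and 0.04 for GRP+RC. In 1014-Grpr, mock held 0.0338, 0.241 and 0 CPM (1, 8 and 0 counts) and GRP 8.53, 23.3 and 20.3 (214, 710 and 913 counts), while RC gave 0.0491, 0.115 and 0.357 and GRP+RC 0.68, 0.659 and 1.72. In both lines the GRP libraries stood far above the others, and in 1014-Grpr the GRP+RC libraries also stood above RC. In 1181-Grpr the GRP libraries held 17, 5 and 5 counts (0.472, 0.172 and 0.164 CPM) against 2, 1 and 1 in mock, too few for the gene to be kept in the fit of this line. It was listed at 0 in 10 of 12 libraries of 1181-Ctrl, with 2 counts at most, and did not pass 0.314 CPM in 1014-Ctrl. The log2 fold change with GRP was 3.07 (SE 0.2) in 1057, 5.03 (SE 0.76) in 1064 and 7.34 (SE 0.68) in 1014-Grpr, of which the latter 2 depend on the prior count and are no bound. GRP+RC against GRP gave -1.56 in 1057, -4.53 in 1064 and -4.10 in 1014-Grpr.

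A gene was called at an edgeR adjusted p under 0.05 with an absolute log2 fold change above 1. With GRP against mock, 5 of 5 genes were past this rule in 1057 beside 4.96% of all genes tested that were called higher, 3 of 5 in 1064 (Plau, Plaur and Serpinb2) beside 1.49%, 3 of 5 in 1014-Grpr (the same 3) beside 3.15%, and 0 of 4 in 1181-Grpr beside 0%. With GRP+RC against GRP, 3 of 5 genes were past it and lower in 1057 (Plaur, Serpine2 and Serpinb2) beside 0.761% of all genes, 0 of 5 in 1064 beside 0.0145% (3 of 5 with the replicate number as a block), 2 of 5 in 1014-Grpr (Plaur and Serpinb2) beside 1.59%, and 0 in 1181-Grpr, 1181-Ctrl and 1014-Ctrl beside 0%. With that block, edgeR called 253 of 13794 genes in 1064, in either direction. Since the genes were chosen on this response, nothing is read from these counts.

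**Figure D3:**
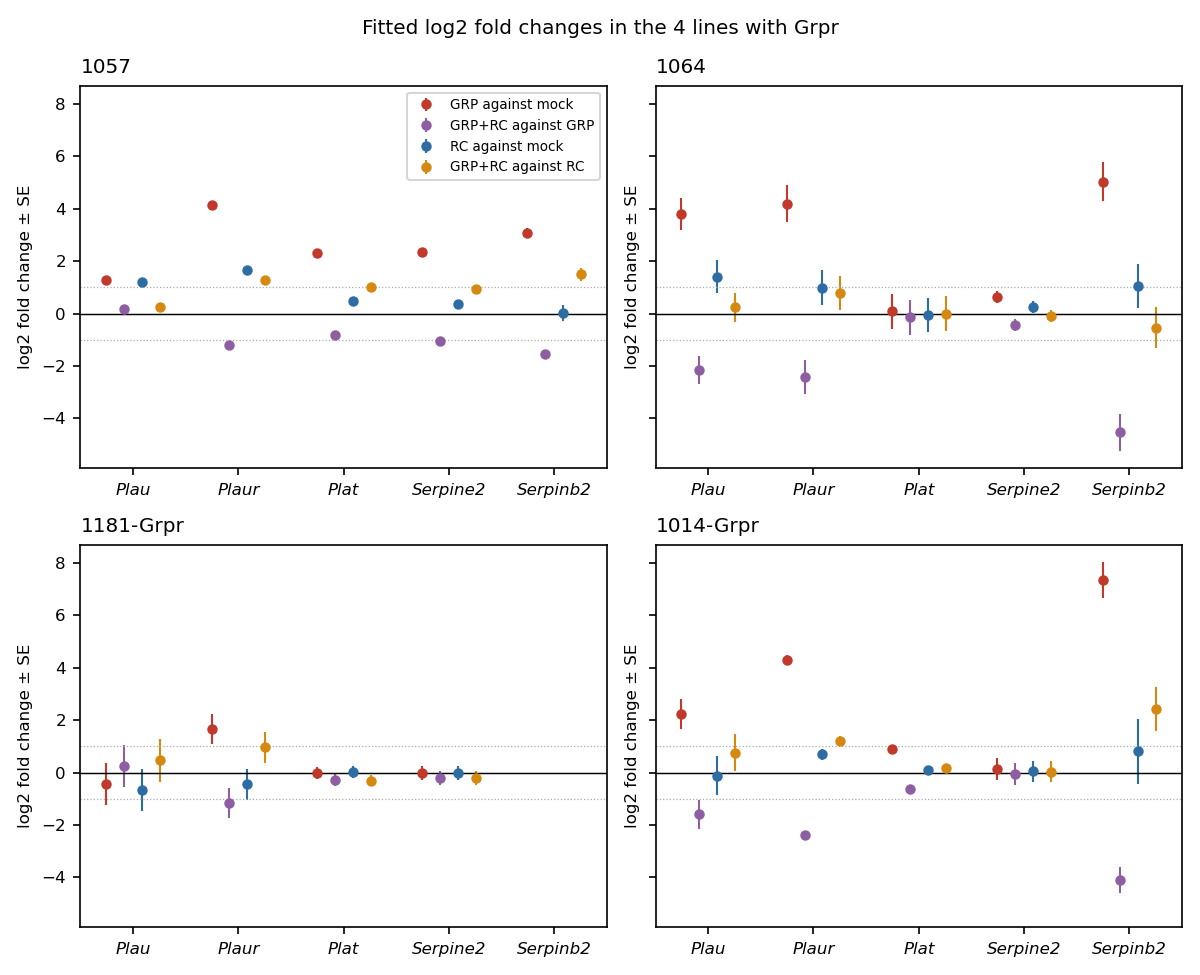
Log2 fold changes (± SE derived from the edgeR test statistic, n = 3 libraries a group) of the 5 genes in the 4 GRPR lines for GRP against mock, RC against mock, GRP+RC against RC and GRP+RC against GRP, with dotted lines at 1 and -1. With GRP against mock Plaur lies above 4 in 1057, 1064 and 1014-Grpr, while Plat lies above 2 in 1057 alone.

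The comparison of GRP+RC with RC asks whether GRP still had an effect in the presence of its antagonist, and it shares no library with GRP against mock. In 1057, Plau, Plaur, Plat, Serpine2 and Serpinb2 were each higher with GRP+RC in 3 of 3 libraries, without overlap. The share of all genes without overlap was not computed for any comparison, so nothing is read from this here or in later comparisons. In this comparison 4386 of 14195 genes had an unadjusted edgeR p under 0.05. The receptor gene Plaur rose by a log2 fold change of 1.27 (SE 0.09, edgeR adjusted p = 2.3e-11), the activator gene Plat by 1.01 (SE 0.04, adjusted p = 2.2e-17) and the inhibitor gene Serpinb2 by 1.5 (SE 0.25, adjusted p = 3.8e-05). Serpine2 was at 0.92 (SE 0.06, edgeR adjusted p = 1.8e-11) and Plau at 0.26 (SE 0.06, adjusted p = 0.0076), both under the fold threshold. Thus 3 of 5 genes were called higher, with a median log2 fold change of 1.01, beside 0.845% of 14195 genes and a median of -0.01 over all of them. The genes were chosen with their response to GRP known, and this comparison is again a response to GRP in the same line. A share or median above that of all genes can follow from the choice, so nothing is read from it. Plat sat at the fold threshold, at 0.99 without GRP+RC replicate 2, and Serpine2 reached 1.00 and was called without RC replicate 2.

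In the other GRPR lines the main edgeR fit, which had no replicate block, called none of these genes between GRP+RC and RC. Replicates lay closer together in 1057. The median chi-square per degree of freedom between its replicates was 4.18, against 87.7 in 1064, 30 in 1181-Grpr and 19.1 in 1014-Grpr. Calls in 1057 alone therefore do not show that the response differed between lines. In 1014-Grpr, Plaur had a log2 fold change of 1.21 (SE 0.2, edgeR adjusted p = 0.13) and Serpinb2 of 2.43 (SE 0.82, adjusted p = 0.53), each higher in 3 of 3 libraries without overlap. Here too nothing is read from the lack of overlap. Plau was at 0.77, Plat at 0.16 and Serpine2 at 0.04 there. In this line edgeR called 0 of 5 genes beside 0% of 13730, of which 947 had an unadjusted p under 0.05, Plaur and Serpinb2 among them. Same-numbered libraries of 1014-Grpr deviated together, and with the replicate number as a block edgeR called 29 genes, with Plaur at 1.22 (adjusted p = 1.1e-04) and Serpinb2 at 2.47 (adjusted p = 0.025). DESeq2 without the block also called Plaur at 1.21 (adjusted p = 9.4e-05), as did edgeR without GRP replicate 1 (1.22, adjusted p = 0.0085) or GRP replicate 2 (1.22, adjusted p = 0.036).

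Line 1064 gave 0 called of 5 genes between GRP+RC and RC beside 0% of 13794 genes in edgeR, with 24 genes at an unadjusted p under 0.05. There Plaur was at 0.78 (SE 0.64) and was higher with GRP+RC in each of the 3 same-numbered pairs, with 0.77 (SE 0.57, edgeR adjusted p = 1.0) under the replicate block. Plau was at 0.23, Plat at -0.01, Serpine2 at -0.08 and Serpinb2 at -0.54 (SE 0.79). In 1181-Grpr, 0 of 4 genes tested were called beside 0% of 14506, with 257 at an unadjusted p under 0.05. Plaur was at 0.96 (SE 0.59), Plau at 0.47, Plat at -0.30 and Serpine2 at -0.21, and without the library against its label these became 0.99, 0.71, -0.08 and 0.08. Without that library 86 of 14770 genes had an unadjusted p under 0.05. In the control lines 0 of 3 genes tested in 1181-Ctrl and 0 of 4 in 1014-Ctrl were called beside 0% of 14188 and 13755 genes, with 40 and 59 at an unadjusted p under 0.05, and log2 fold changes from -0.14 to 0.24. DESeq2 called none of the members in these 4 lines.

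The comparison of RC with mock asks whether the antagonist alone moved the genes, and it shares its mock libraries with GRP against mock. The labels give 0.1% DMSO for mock cells and state no vehicle for the others. A difference in vehicle, if there was one, cannot be told apart from RC here. In 1057, Plau rose with RC by a log2 fold change of 1.20 (SE 0.07, edgeR adjusted p = 1.1e-08) and Plaur by 1.65 (SE 0.13, adjusted p = 2.0e-10), each higher in 3 of 3 libraries. Plat, at 0.50 (SE 0.04, edgeR adjusted p = 3.0e-11), and Serpine2, at 0.35 (SE 0.07, adjusted p = 6.1e-04), were also higher in 3 of 3 libraries but under the fold threshold. The share of all genes higher in 3 of 3 libraries was not computed, so nothing is read from that. Serpinb2 was at 0.01 (SE 0.3, edgeR adjusted p = 0.98). This made 2 of 5 genes called higher beside 0.845% of 14195 genes, of which 4991 had an unadjusted edgeR p under 0.05. For Plau in 1057 the log2 fold changes with RC and with GRP, 1.20 and 1.29, were alike in size, whereas for Plaur they were 1.65 and 4.13, and these 2 contrasts share the mock libraries.

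No gene of the 5 was called between RC and mock in another line, beside 0% of all genes in each, where 33 to 685 genes had an unadjusted p under 0.05. DESeq2 called none of them there either. Plau in 1064 was at 1.41 (SE 0.63, edgeR adjusted p = 1.0) and Plaur in 1014-Grpr at 0.69 (SE 0.22, adjusted p = 1.0), each higher in 3 of 3 libraries, with unadjusted p under 0.05 in the same model. With the replicate block neither passed, and nothing is read from the 3 of 3 libraries. In 1014-Ctrl, Plat was at -0.55 and Serpine2 at -0.43, which became 0.11 and 0.27 without the mock library against its label. Likewise, GRP against mock in 1014-Ctrl gave -0.65 for Plat and -0.54 for Serpine2 with that library and 0.01 and 0.17 without it. GRP against mock called 0 of 4 genes tested in 1014-Ctrl and 0 of 3 in 1181-Ctrl beside 0% of all genes, with 558 and 36 genes at an unadjusted p under 0.05, and the value farthest from 0 in 1181-Ctrl was -0.03 for Serpine2. Without the mock library against its label, 1014-Ctrl had 195 genes at such a p for GRP against mock and 287 for RC against mock.

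Whether these effects differed between lines was tested on the difference itself, in a fit of all 72 libraries chosen after the values had been seen. For GRP+RC against RC, the log2 fold change in 1057 exceeded that in 1064 by 1.00 (SE 0.47) for Serpine2 and 2.04 (SE 0.9) for Serpinb2, and that in 1014-Grpr exceeded that in 1014-Ctrl by 1.36 (SE 0.62) for Plaur. These had unadjusted p under 0.05, but after adjustment over 16596 genes none of the 5 genes passed for any of 4 pairs of lines in GRP+RC against RC or RC against mock. This fit shares 1 spread over all lines and had no replicate block, and in it the genes called in 1057 were not called either (Plaur 1.27, SE 0.43, edgeR adjusted p = 0.52), and a p that misses the threshold does not show that the lines responded alike. Over all genes edgeR called 0 in each of these 8 tests, with 101 to 637 genes at an unadjusted p under 0.05, and 0 or 1 without the libraries against their labels.

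At baseline, Plau and Serpine2 differed between lines at levels well above the floor in at least 1 line. Compared per transcript length as TPM, Plat led in mock in 5 of 6 lines, at 144 to 286 TPM on average, where 1014-Ctrl was at 202 TPM with the library against its label and 129 without it. In 1064, Serpine2 led at 171 ± 29.1 TPM against 129 ± 84.4 for Plat (SD, n = 3). Plau was at 54.8 ± 2.78 TPM in 1057, where Plat was at 208, and at 0.22 to 1.02 in the other lines. Plaur lay between 1.5 and 4.67 TPM and Serpinb2 between 0.0167 and 0.653.

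In 1057 against 1064, Plau was higher by a log2 fold change of 7.78 (SE 0.57, edgeR adjusted p = 1.0e-16), with 42.8 ± 3.05 against 0.171 ± 0.174 CPM (SD, n = 3). The 1064 libraries held 4, 0 and 10 counts of Plau, so the size of this value depends on the prior count. Serpine2 was lower by the reverse pattern, -5.45 (SE 0.4, adjusted p = 7.2e-17 in edgeR), with 10.6 ± 0.303 against 466 ± 94.9 CPM. Neither gene overlapped between the lines. Serpinb2 was at 2.03 (SE 0.71, edgeR adjusted p = 0.014) without overlap, and Plaur at -1.68 (SE 0.46, adjusted p = 0.0016) with overlap. The value of Serpinb2 also depends on the prior count, with 1, 1 and 7 counts in 1064. Plat was at 0.71 (SE 0.4, edgeR adjusted p = 0.13). So 4 of 5 genes were called between these lines beside 26.9% of 16596 genes. Plaur rested on 1064 mock replicate 3, being at -0.47 (edgeR adjusted p = 0.41) without it, Plat was called without 1064 mock replicate 2 (1.37, adjusted p = 0.0079), and Serpinb2 was not called without 1057 mock replicate 1 or without 1064 mock replicate 1 or 2 (adjusted p = 0.055 to 0.077).

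In 1181-Grpr against 1181-Ctrl, Plau alone was called, at 2.07 (SE 0.69, edgeR adjusted p = 0.03), so 1 of 5 genes beside 7.62%. Its mock values were 0.282, 0.209 and 1.44 CPM against 0.154, 0.122 and 0.183, and without 1181-Grpr mock replicate 3 the difference was 0.73 (edgeR adjusted p = 0.62). The call was also absent without any of the 3 mock replicates of 1181-Ctrl (edgeR adjusted p = 0.061 to 0.12). Beside this comparison stands that the 11 libraries of 1181-Grpr with Grpr held both Xist (193 to 248 CPM) and the Y-linked gene Ddx3y (37.1 to 63.3 CPM), whereas 1181-Ctrl held Ddx3y (55.9 to 88.1) and Xist at 0.641 CPM at most. The melanocyte gene Tyrp1 was at 1225 to 2112 CPM in 1181-Grpr and 0.838 to 4.18 in 1181-Ctrl, and the part of these differences in the result was not tested.

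In 1014-Grpr against 1014-Ctrl, 0 of 5 genes were called by edgeR beside 3.42% of 16596 genes, with log2 fold changes from -0.82 for Plaur to -0.48 for Plat. None had an unadjusted p under 0.05, and DESeq2 called none. Without the libraries against their labels, 74 genes in place of 568 were called, and Plat was at 0.16 and Serpine2 at 0.20 (edgeR adjusted p = 1.0 for each). Plau was then at -0.75, Plaur at -0.67 and Serpinb2 at -1.10, also not called. In 1181-Ctrl against 1014-Ctrl, 3 of 5 genes were called beside 18.9%: Serpine2 higher by 1.40 (SE 0.33, edgeR adjusted p = 6.1e-04), Plaur lower at -1.12 (SE 0.47, adjusted p = 0.047) and Serpinb2 lower at -3.46 (SE 1.22, adjusted p = 0.019), the last between groups of 0 to 1 and 2 to 6 counts, so that its value depends on the prior count. Without the libraries against their labels Serpine2 was at 2.09 (edgeR adjusted p = 6.8e-07) and Plaur at -0.97 (adjusted p = 0.12), not called. Serpinb2 was then at -3.78 (edgeR adjusted p = 0.013), and 4484 of 16901 genes were called. Leaving out any mock library of either line ended the call of Plaur, and of Serpinb2 for 4 of the 6.

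In the order of mock levels, Plau in 1057 did not overlap with the next line, 1181-Grpr, and the lines below it overlapped with their neighbours, except that without the library against its label 1014-Ctrl (0.371 and 0.418 CPM) lay above 1014-Grpr (0.176 to 0.301). Serpine2 fell into 4 steps: 1064 above 1181-Ctrl and 1181-Grpr, which overlapped, then 1014-Ctrl and 1014-Grpr, which overlapped, then 1057. For Plat every neighbour in the order overlapped with all libraries included, from 477 ± 75.1 CPM in 1181-Grpr to 246 ± 6.5 in 1014-Grpr (SD, n = 3). Without the library against its label, 1014-Ctrl averaged 220 CPM (210 and 229) rather than 344 and was the lowest line, below 1014-Grpr (239 to 251) without overlap.

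Genes of the same system were taken from a list of 45 set out by role, of which 19 to 21 could be tested per line and 25 in the fit of all libraries. The list holds plasminogen and targets of plasmin, proteases upstream of urokinase, plasminogen receptors, integrin and other partners of the urokinase receptor, clearance receptors, other inhibitors, and Serpinb genes that neighbour Serpinb2 on chromosome 1. None was called with GRP+RC against RC or RC against mock in any line, or with GRP against mock in the control lines. Of all genes, 0.845% were called higher in 1057 in each of the former 2 comparisons, and 0% in the other lines. A count of 0 in so short a list lies near these shares, so nothing is read from it. Plg, the gene of plasminogen itself, did not pass 1.54 CPM in any library and was at 0 in all mock libraries of 1057 and 1064. Of the neighbours of Serpinb2, only Serpinb8 and Serpinb11 could be tested, and Serpinb8 was at 39.6 CPM in mock 1057 with a log2 fold change of 0.04 with GRP and 0.09 with GRP+RC against RC.

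With GRP against mock, Anxa2, a cell surface partner for plasminogen and Plat, was past the rule in 1057 at a log2 fold change of 1.27, and Itga5, an integrin subunit, in 1014-Grpr at 1.43. These are descriptions, with no test.

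Between mock libraries, 7 of 25 genes of the list were called between 1057 and 1064, beside 26.9% of all genes, and 0 between 1014-Grpr and 1014-Ctrl, beside 3.42%. These counts were 7 and 0 without the libraries against their labels as well. In 1057 against 1064, the lipoprotein receptor family genes Sorl1 (5.40) and Vldlr (2.13) and the enolase gene Eno1 (1.01) were higher, and the clearance receptor gene Lrp1 (-2.11), Anxa2 (-2.12), the protease gene Hpn (-3.84) and the inhibitor gene Serpinb6a (-2.56) lower, as log2 fold changes. Sorl1 and Hpn were below 1 CPM in both lines, and their values depend on the prior count. In 1181-Ctrl against 1014-Ctrl, Lrp1 (1.29, and 2.14 without the library against its label) and Plg (2.29 and 4.53, fitted values that depend on the prior count since 1014-Ctrl was near 0) were higher. Lower there were Anxa2 (-1.71 with and -2.09 without that library), its partner S100a10 (-1.55 and -1.89), the protease gene Ctsb (-1.33 and -1.62), Itga5 (-1.26 and -1.40), the fibronectin gene Fn1 (-1.15 and -1.48), Sorl1 and the fibrinogen gene Fga, both at 0 in the 3 mock libraries of 1181-Ctrl. Without that library Igf2r was called as well. Plg, Sorl1 and Fga were below 1 CPM in both lines.

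The genes whose pattern was most like that of each member were taken by Pearson r over the 24 group means of log2(CPM + 1), each centred on its line, among 16423 genes. For Plaur these were Vcl (0.986), Tpm1 (0.985) and Csrnp1 (0.981), and for Serpinb2 Gm17501 (0.989) and Fosl1 (0.982). For Plau they were Fam20c (0.953), Gpd2 (0.945) and Ttc7b (0.935), for Plat Tmem214 (0.951), Arhgap5 (0.947) and Bglap3 (0.944), and for Serpine2 Itga3 (0.968), Plpp5 (0.964) and Tuba4a (0.959). Group means of Bglap3 did not pass 0.388 CPM, or 0.103 outside 1057, so it was near the floor. Those of Gm17501 were also low, at 0.988 CPM or less apart from 2.4 in 1014-Grpr with GRP. Itga3 was low in 1014-Grpr, at 0.0974 to 0.358 CPM. Vcl encodes the adhesion protein vinculin, Tpm1 a tropomyosin of actin filaments, Fosl1 a subunit of AP-1 and Itga3 an integrin subunit. Among the members, r was highest between Plat and Serpine2 (0.917), then between Plaur and Serpinb2 (0.885) and between Plau and Plaur (0.866), and lowest between Serpine2 and Serpinb2 (0.477). The group means share libraries and, within a line, the same 4 treatments, so r is given as a description.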

How the data were processed

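Libraries were prepared by the authors from 1 µg of total RNA with a TruSeq Stranded mRNA kit, and paired reads were aligned with STAR to GRCm38 with GENCODE release 13. The strand setting of the counting is not given in the sources used here. The authors deposited raw read counts per gene, without normalization, and TPM values, used here for levels between genes and in alternatives. In the deposited TPM values, the 12 columns of 1057 were written with a decimal comma, read as a point. Gene symbols were found for 99.56% of 50600 gene IDs.

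Counts were fitted per line with edgeR 4.0.16 in R 4.3.3 (filterByExpr, TMM, quasi-likelihood test, Benjamini-Hochberg adjustment over all genes tested). Mock libraries were compared between lines in a fit of all 72. DESeq2 1.42.0 and limma 3.58.1 served as alternatives and matplotlib 3.10.9 drew the plots. Steps were tested on simulated data. The 5 genes and all lists were chosen with earlier results of these data known. Named were the 5 genes, listed genes called in a tested contrast or, for a role without one, its most counted gene, and the 3 genes most like each member. Some of the genes this rule takes are not reported here. No replicates were copies of each other, the lowest chi-square per degree of freedom being 2.44, in 1057. The labels pair replicates by number alone. Deviations of same-numbered libraries correlated in 1064 (0.58 to 0.84), 1181-Ctrl (0.74 to 0.87) and 1014-Grpr (0.39 to 0.54). The correlation ran from 0.09 to 0.45 in 1014-Ctrl, from 0.00 to 0.76 in 1181-Grpr and from -0.06 to 0.09 in 1057. Block calls had been seen before this criterion, a correlation over 0.1 in every pair, was applied. Every contrast of 1057 failed it, as did RC against mock in 1014-Ctrl. In 1181-Grpr, GRP+RC against RC and GRP+RC against GRP failed it. In 1014-Ctrl and 1181-Grpr the pair under 0.1 was that of replicate 2, which holds the library against its label.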

Additional observations from a re-analysis of the deposited data

How the results depend on the processing

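Counts of the 5 genes past the call rule moved in 32 of 564 comparisons with an alternative. GRP+RC against RC in 1057 gave 3 genes, but 5 by the adjusted p alone, 1 by limma on log2(TPM + 1) and 0 in one fit of all libraries, which by construction shares 1 spread over lines. Over all genes limma called 28 and the one fit 8. The share of all genes by the adjusted p alone is not given here, but 4386 of 14195 had an unadjusted edgeR p under 0.05. RC against mock in 1057 gave 2, but 4 by the adjusted p alone, where 4991 of 14195 genes had an unadjusted edgeR p under 0.05. It gave 0 in that fit, which called 15 of 16596 genes. GRP+RC against RC in 1014-Grpr gave 0, but 1 with DESeq2, 1 without a filter on low counts, 2 with the replicate block, and 0 to 1 with a replicate left out. Over all genes DESeq2 called 11 there, the fit without the filter 4 and the block 29. GRP+RC against GRP gave 3 in 1057, but 0 in one fit of all libraries. In 1064 it gave 0, but 3 with DESeq2, 1 without the filter, 3 with the replicate block, 3 in one fit of all libraries and 0 to 1 with a replicate left out. For mock 1057 against 1064 the count of 4 became 2 with limma on log2(TPM + 1) and 2 with the libraries of these lines alone. Mock 1181-Grpr against 1181-Ctrl gave 1, and 0 without the filter, 0 with limma at a pseudocount of 1, 0 at 0.1, 0 with these lines alone and 0 to 1 with a replicate left out. Mock 1181-Ctrl against 1014-Ctrl gave 3, and 1 with limma at a pseudocount of 1, 0 with these lines alone and 1 to 2 with a replicate left out. Except where stated, the cause was not tested.

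Of 2392 log2 fold changes under alternatives, 2309 kept their direction and side of the threshold or moved by less than the error, 39 lost a call, 12 gained one, 32 moved otherwise and 0 of the called ones changed sign, while 142 values that were not called did. The replicate block, without pairing evidence in 1057, gave 133 genes in place of 129 there for GRP+RC against RC. It raised the genes called for GRP+RC against RC in 1014-Grpr from 0 to 29, for GRP against mock in 1064 from 314 to 895 and for GRP+RC against GRP in 1064 from 2 to 253. Leaving out the libraries against their labels, interaction tests and their combination with the block were chosen after seeing the data. Counts near the floor limit Plau outside 1057 and Serpinb2 without GRP.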
